A study of Mus musculus with 12 samples.

Results

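Mouse myeloid progenitors that overexpress the nucleosome-binding protein HMGN1 (HMGN1-OE) were compared with wild-type progenitors 36 h after withdrawal of estradiol (E2), by RNA-seq of polyA RNA. The comparison took 4 of the 12 libraries of the series, 2 HMGN1-OE and 2 wild-type, and the 11516 of 23309 listed genes that reached 1 FPKM in at least 2 of the 12 libraries. Both genotypes were bone marrow progenitors immortalized with a retroviral fusion of the estrogen receptor to HoxB8 (ER-HoxB8) and kept in interleukin 3, with E2 holding them immature until the start of the time course. The HMGN1-OE cells came from transgenic mice that carry human HMGN1 on a C57BL/6 background, and the controls from wild-type littermates. The other 8 libraries were the same genotypes with E2 still present (0 h) and 96 h after its removal. The age and sex of the donor mice and the promoter of the transgene are not given in the sources used here. The study calls the 2 libraries of a group biological duplicates, and whether they come from separate mice or separate cultures of 1 immortalized line is not given in the sources used here. Libraries are named by their order in the deposited table, first and second, since its numbering is not that of the labels.

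HMGN1 is a small protein that binds nucleosomes, competes with linker histone and keeps chromatin open, and its gene lies in the part of human chromosome 21 gained in Down syndrome. HoxB8 blocks the maturation of myeloid progenitors while it is active in the nucleus. When E2 is removed the fusion protein leaves the nucleus and the cells differentiate together towards neutrophils and macrophages, gaining granule proteins, adhesion receptors and pathogen sensors. Mmp8, Camp, Ngp and the S100a8 and S100a9 pair are textbook genes of that programme.

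The values are FPKM scaled by the authors to spike-in RNAs added to a fixed number of counted cells, so that they compare RNA amounts per cell. Read counts cannot be recovered from them, and the depth behind a value is not known. A gene with no signal appears at about 0.1 FPKM in place of 0. Hmgn1 is listed as the mouse gene, and how reads of the human transgene were counted is not given in the sources used here, so it is no check of the genotype labels. It was at 134 and 188 FPKM in HMGN1-OE against 141 and 183 FPKM, a log2 difference of -0.02 (SE 0.55, limma adjusted p = 0.979). Cd3e, which defines T cells, and Siglech, which defines plasmacytoid dendritic cells, were near 0.1 FPKM in all 4 libraries. Other lymphoid genes were present: of the 20 on that list 8 were tested, Ebf1, a B-lineage factor, was at 20.2 and 15.3 FPKM in HMGN1-OE against 7.15 and 44.8 FPKM, and the summed FPKM was 304 and 228 against 81.6 and 227. The part of these cells in the results was not tested. Mpo, the myeloperoxidase gene of granulocyte precursors, was at 4147 and 2451 FPKM in HMGN1-OE against 7066 and 5507 FPKM. In bulk RNA, fewer cells of a type and less RNA per cell cannot be told apart.

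At 36 h most genes were listed lower in HMGN1-OE than in wild type, and a much smaller number stood far from that shift in either direction. The log2 difference was below 0 for 95.9% of the tested genes and above 0 for 468 (4.06%), and the 2 genotypes did not overlap, with HMGN1-OE the lower, for 9717 (84.4%), or the higher, for 136 (1.18%). On log2(FPKM + 1), limma called 145 genes (1.26%) at an adjusted p under 0.05, 48 higher (0.417%) and 97 lower (0.842%), and an unadjusted p under 0.05 was reached by 593 (5.15%). The median difference over all tested genes was -0.54 on that scale. By library, medians of log2(FPKM + 1) over those genes were 4.30 and 4.19 in HMGN1-OE against 4.69 and 4.97 in wild type at 36 h, while the libraries of wild type alone had 3.91 and 4.78 at 0 h and 2.99 and 2.02 at 96 h, so that libraries of 1 group differed there by more than the genotypes did at 36 h. Of the 145 called genes 17.2% reached the filter's 1 FPKM in libraries of 1 genotype only, 14 in HMGN1-OE and 11 in wild type (against 1.94% of all tested genes), so that they passed the filter only through the genotype where they were high and their calls support nothing further. With the deposited scale limma took the spread of each gene wholly from the trend over genes of its level, so a small p can go with libraries of 1 group that lie far apart. Once each library's log2 values were centred on their median, 6 genes were called (0.0521%), with 443 (3.85%) under an unadjusted p of 0.05. After centring HMGN1-OE was the higher without overlap for 26% of genes and the lower for 9.49%. These 6 were C1qtnf6, Il11ra1 and Gm13305, which were higher (0.0261%), and BC064078, Gpx8 and Mir3074-1, which were lower (0.0261%). Centring lifts genes of low level, since their log2 values hardly follow the library's scale, so a second scaling, chosen after seeing the data, multiplied each library to the same median FPKM before the log. It called 8 genes (0.0695%), 5 higher (0.0434%) and 3 lower (0.0261%). The number called with the deposited scale was 85 without the second HMGN1-OE library and 231 without the first wild-type library.

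**Figure D1:**
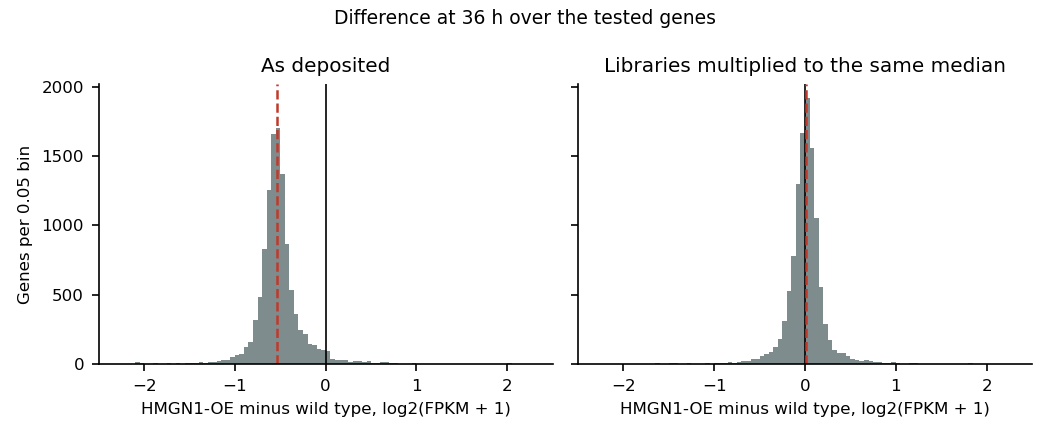
Number of genes (vertical axis) by log2 difference on log2(FPKM + 1), HMGN1-OE minus wild type at 36 h (horizontal axis), with the deposited scale and after each library was multiplied to the same median FPKM, where the dashed line is the median over the 11516 genes. With the deposited scale the bulk lies left of 0 with a median of -0.54, after scaling the median is 0.0102, and 42 and 34 genes lie beyond the ends of the axis.

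A set of genes rose in HMGN1-OE cells with libraries that stayed apart under both scales. The criterion was a call with the deposited scale plus libraries apart in the same direction before and after centring, and it held for 91 genes (0.79%), 35 higher (0.304%) and 56 lower (0.486%). C1qtnf6, which encodes a secreted protein with a C1q/TNF-like domain, was at 38.5 and 39.7 FPKM in HMGN1-OE against 0.847 and 3.24 FPKM in wild type. It shares exon bases with the predicted gene Gm49490 on the other strand. The HMGN1-OE libraries were nearly equal and far above both wild-type libraries. The log2 difference was 3.84 (SE 0.45, limma adjusted p = 2.94e-15) with the deposited scale and 4.42 (adjusted p = 0.00269) after centring, and with libraries set to the same median FPKM the adjusted p was 0.00155. At 0 h C1qtnf6 was at 54.0 and 28.5 FPKM in HMGN1-OE against 1.26 and 2.23 FPKM in wild type, and at 96 h at 3.56 and 7.48 against 0.175 and 0.0566. The gene thus lay higher in HMGN1-OE at each of the 3 times, while its level at 96 h was below that at 36 h in all 4 libraries.

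The receptor gene Il11ra1 and its neighbours on chromosome 4 rose together. Il11ra1 encodes the alpha chain of the interleukin 11 receptor, and its HMGN1-OE libraries were at 18.9 and 22.6 FPKM against 3.79 and 4.68 FPKM in wild type. The log2 difference was 2.06 (SE 0.43, limma adjusted p = 0.000336), and 2.64 (adjusted p = 0.023) after centring. Gm13305, annotated as a member of the same receptor family, was at 7.73 and 9.13 FPKM against 1.56 and 1.75 FPKM, a log2 difference of 1.82 (SE 0.38, limma adjusted p = 0.000228), and 2.40 (adjusted p = 0.0395) after centring. Both genotypes were narrow in these genes and did not overlap. Without the second HMGN1-OE library the adjusted p of Il11ra1 was 0.079 and that of Gm13305 was 0.053. The chemokine gene Ccl27a, which lies on the opposite strand of Il11ra1 and shares exon bases with it, was at 6.02 and 4.71 FPKM against 0.865 and 0.321 FPKM (log2 difference 2.01, SE 0.36, limma adjusted p = 3.5e-06). After centring it did not pass (log2 difference 2.59, limma adjusted p = 0.101). The related gene Ccl27b was at 1.44 and 1.83 FPKM against 0.39 and 0.252 FPKM and did not pass (log2 difference 0.99, limma adjusted p = 0.0997). The libraries were made without strand, so reads from Il11ra1 and Ccl27a cannot be told apart where they overlap. Il11ra2, a further copy, stayed near 0.1 FPKM in all libraries. Near-identical copies can share reads, but their transcripts were not compared, and most of a promoter window lies before the start, so it does not tell how reads were split. The promoter of Gm13305 (RefSeq, GRCm38.p6, chr4:42168554-42168853, minus strand, from 250 bases before to 50 bases after the start) is shown because it and that of Il11ra2 share 299 bases without a mismatch, in capitals:
Gm13305: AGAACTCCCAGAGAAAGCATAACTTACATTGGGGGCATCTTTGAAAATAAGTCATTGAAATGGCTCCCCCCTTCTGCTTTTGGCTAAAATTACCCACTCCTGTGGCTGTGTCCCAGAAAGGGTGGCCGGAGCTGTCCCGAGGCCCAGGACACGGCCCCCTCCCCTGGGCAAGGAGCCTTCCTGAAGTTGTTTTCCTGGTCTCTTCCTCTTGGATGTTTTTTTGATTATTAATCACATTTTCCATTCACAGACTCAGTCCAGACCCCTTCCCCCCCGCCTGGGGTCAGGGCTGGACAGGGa
The windows of Gm13305 and Il11ra2 each held 1 CCAAT, a motif in 37.4% of the 32851 promoter windows searched on both strands, and neither TATAAA (13.6% of windows) nor GGGCGG (35.7%).

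Hormad2, Tdrkh and Zfp783 were also among the called rises. Hormad2, a meiotic chromosome axis gene, was at 3.55 and 27.1 FPKM in HMGN1-OE against 0.174 and 0.335 FPKM in wild type (log2 difference 3.18, SE 0.37, limma adjusted p = 4.44e-15). Tdrkh, which acts in the piRNA pathway, was at 4.81 and 17.1 FPKM against 0.187 and 0.962 FPKM (log2 difference 2.75, SE 0.37, limma adjusted p = 2.46e-11). Zfp783, a zinc finger gene, was at 2.21 and 6.07 FPKM against 0.154 and 0.194 FPKM (log2 difference 2.02, limma adjusted p = 4.22e-07). These 3, like Gstm7, reached 1 FPKM in HMGN1-OE libraries alone and passed the filter only through them. In all 3 genes the second HMGN1-OE library was the higher, and both lay above both wild-type libraries. The germ cell gene Dazl, chosen after its values were seen, was at 2.13 and 14.8 FPKM against 0.505 and 2.0 FPKM (log2 difference 1.73, SE 0.34, limma adjusted p = 7.6e-05), and its first HMGN1-OE library was close to the second wild-type one. Tdrkh shares exon bases with Oaz3 on the other strand and Zfp783 with Zfp956. Without the second HMGN1-OE library the adjusted p of Zfp783 was 0.065.

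Further rises were seen in Gstm7, Afap1 and 4933440M02Rik. Gstm7, a glutathione S-transferase gene, was at 2.75 and 7.99 FPKM in HMGN1-OE against 0.375 and 0.327 FPKM in wild type (log2 difference 2.10, SE 0.36, limma adjusted p = 1.16e-06). Its levels were higher at 0 h, 32.4 and 10.4 FPKM against 0.153 and 0.324 FPKM, where the log2 difference was 3.98. Afap1, which encodes an actin filament-associated protein, was at 13.8 and 7.74 FPKM against 1.21 and 2.47 FPKM (log2 difference 2.04, SE 0.38, limma adjusted p = 2.38e-05), and at an adjusted p of 0.0351 with libraries set to the same median. The uncharacterised gene 4933440M02Rik was at 13.6 and 6.95 FPKM against 0.200 and 3.48 FPKM (log2 difference 2.21, limma adjusted p = 6.17e-07). In each of these the 2 groups did not overlap, but each call was lost without 1 of the libraries. Without the second HMGN1-OE library the adjusted p of Gstm7 was 0.13, without the first that of Afap1 was 0.064, and without the first wild-type library that of 4933440M02Rik was 0.17. The predicted gene Gm9846 had the largest rise among genes of at least 200 exon bases, at 639.8 and 727 FPKM against 20.2 and 1.18 FPKM (log2 difference 6.65, SE 0.54, limma adjusted p = 3.26e-32, and 0.669 after centring). At 0 h its values crossed between the genotypes, with 578 and 13.4 FPKM in HMGN1-OE against 0.816 and 23.6 FPKM.

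**Figure D2:**
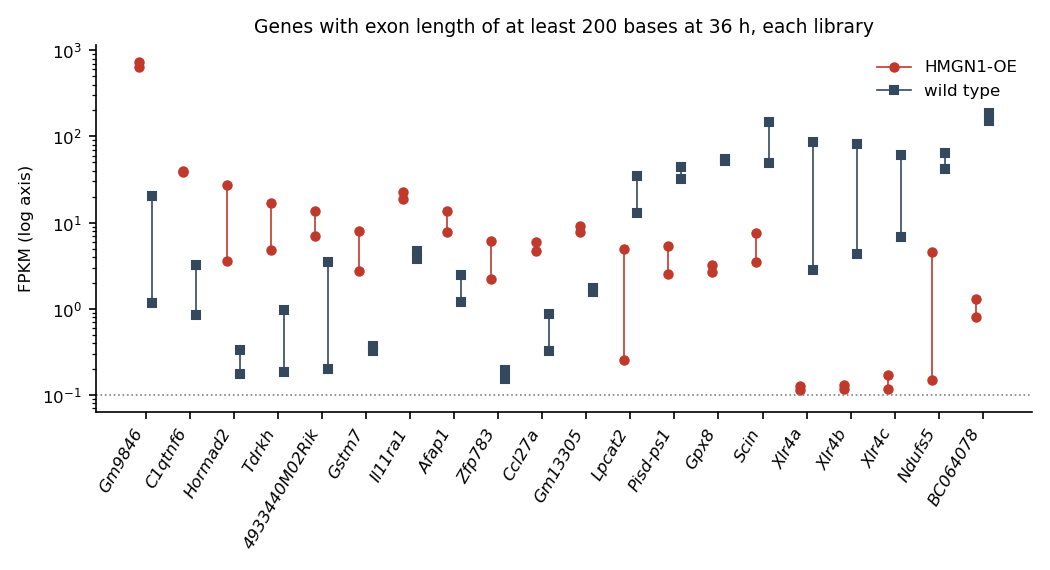
FPKM on a log axis at 36 h in each library (points; 2 HMGN1-OE, 2 wild-type) for 20 genes of at least 200 exon bases, 11 higher and 9 lower in HMGN1-OE, with a dotted line at 0.1 FPKM where genes without signal are listed. C1qtnf6 and BC064078 have narrow groups far apart, while the wild-type libraries of Xlr4a lie at 2.86 and 86.9 FPKM.

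Of the genes that fell, BC064078 had the largest loss among those of at least 200 exon bases. It is annotated as a transcribed pseudogene on chromosome 6, and was at 1.31 and 0.814 FPKM in HMGN1-OE against 186 and 149 FPKM in wild type. The HMGN1-OE libraries were close to each other, as were the wild-type libraries, and the groups were far apart. The log2 difference was -6.35 (SE 0.48, limma adjusted p = 1.53e-37) and -5.77 (adjusted p = 0.00102) after centring. BC064078 was also low in HMGN1-OE at 0 h, at 0.693 and 0.528 FPKM against 68.6 and 243 FPKM, and at 96 h, at 0.565 and 0.282 FPKM against 17.4 and 3.8 FPKM.

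Gpx8 and Scin fell as well. Gpx8, a glutathione peroxidase of the endoplasmic reticulum membrane, was at 2.68 and 3.25 FPKM in HMGN1-OE against 51.3 and 55.1 FPKM in wild type (log2 difference -3.78, SE 0.43, limma adjusted p = 9.65e-16), and the difference was -3.20 (adjusted p = 0.0453) after centring. The call after centring was lost in each of the 4 sets with 1 library left out, while the call with the deposited scale was kept in those 4 sets. The call after centring was also lost with a pseudocount of 0.1, without the trend, with each gene's own variance, with a mean of at least 5 FPKM and with the 4 libraries at 36 h alone. Its groups were narrow at 36 h, and at 96 h it was near the level of genes without signal in both genotypes, at 0.181 and 0.0555 FPKM against 0.195 and 0.0436 FPKM. Scin, which encodes scinderin, a calcium-dependent protein that severs actin filaments, was at 3.48 and 7.56 FPKM against 48.7 and 149 FPKM (log2 difference -3.80, SE 0.48, limma adjusted p = 7.76e-13), and the difference was -3.22 (adjusted p = 0.247) after centring. The related gelsolin gene Gsn, chosen after its values were seen, was at 20.5 and 22.8 FPKM against 82.3 and 83.7 FPKM, and did not pass (log2 difference -1.89, SE 0.55, limma adjusted p = 0.051). Lpcat2, which makes the lipid mediator PAF, was at 0.252 and 4.95 FPKM against 34.7 and 12.8 FPKM (log2 difference -3.02, SE 0.44, limma adjusted p = 3.57e-09). Without the first HMGN1-OE library its adjusted p was 0.16. Ndufs5, a subunit of respiratory complex I, was at 4.62 and 0.151 FPKM against 42.3 and 64.5 FPKM (log2 difference -4.39, SE 0.48, limma adjusted p = 1.96e-17). It was the 1 called gene among the 76 tested subunits of oxidative phosphorylation, where 1.26% of all genes were called, and their median difference was -0.58 against -0.54 over all genes. Pisd-ps1, a pseudogene of phosphatidylserine decarboxylase, was at 2.53 and 5.30 FPKM against 31.8 and 44.8 FPKM (log2 difference -3.04, SE 0.50, limma adjusted p = 2.65e-07), while its parent gene Pisd was at 49.5 and 49.2 FPKM against 60.6 and 81.9 FPKM. A copy can share reads with its parent, so the split between these 2 is uncertain. Nt5e, which encodes the ecto-nucleotidase CD73 and was chosen after its values were seen, was called lower at all 3 times, at 36 h with 3.63 and 3.64 FPKM against 15.4 and 27.7 FPKM (log2 difference -2.23, SE 0.48, limma adjusted p = 0.000448).

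The X-linked genes Xlr4a, Xlr4b and Xlr4c fell together and were near 0.1 FPKM in both HMGN1-OE libraries. They are members of the X-linked lymphocyte-regulated family, lie close to each other on the X chromosome, and have nearly the same promoter, shown because near-copies can share reads. The windows run from 250 bases before to 50 bases after the start (RefSeq, GRCm38.p6), at chrX:73082458-73082757 on the minus strand for Xlr4a, chrX:73214083-73214382 on the plus strand for Xlr4b and chrX:73243081-73243380 on the minus strand for Xlr4c, and the capitals mark the longest run of 90 bases shared by all 3:
Xlr4a: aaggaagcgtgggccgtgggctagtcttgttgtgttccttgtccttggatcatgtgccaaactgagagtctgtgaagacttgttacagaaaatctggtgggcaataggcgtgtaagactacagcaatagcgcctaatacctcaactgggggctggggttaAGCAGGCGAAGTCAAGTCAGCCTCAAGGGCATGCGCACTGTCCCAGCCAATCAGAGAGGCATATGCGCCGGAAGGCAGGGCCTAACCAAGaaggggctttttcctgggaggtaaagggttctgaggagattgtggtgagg
Xlr4b: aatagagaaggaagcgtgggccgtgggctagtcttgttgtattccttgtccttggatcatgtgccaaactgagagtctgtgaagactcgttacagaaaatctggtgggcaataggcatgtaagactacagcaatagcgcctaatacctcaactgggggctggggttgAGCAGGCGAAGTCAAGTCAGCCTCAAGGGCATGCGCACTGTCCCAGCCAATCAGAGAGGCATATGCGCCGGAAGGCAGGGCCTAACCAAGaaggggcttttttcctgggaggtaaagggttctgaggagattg
Xlr4c: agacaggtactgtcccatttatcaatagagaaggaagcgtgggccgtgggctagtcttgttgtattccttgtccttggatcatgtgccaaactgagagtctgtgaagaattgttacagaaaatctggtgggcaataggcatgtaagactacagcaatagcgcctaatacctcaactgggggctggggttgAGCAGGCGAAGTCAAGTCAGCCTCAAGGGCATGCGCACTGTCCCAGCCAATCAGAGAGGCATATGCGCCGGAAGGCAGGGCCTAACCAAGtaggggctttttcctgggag
Aligned windows of Xlr4a and Xlr4b were identical at 91.8% of 293 bases, those of Xlr4a and Xlr4c at 98.1% of 270, and those of Xlr4b and Xlr4c at 97.1% of 277. Each of the 3 held 1 CCAAT and no TATAAA or GGGCGG. These letters describe the windows and name no factor.

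Xlr4a was at 0.128 and 0.115 FPKM in HMGN1-OE against 2.86 and 86.9 FPKM in wild type (log2 difference -4.04, limma adjusted p = 1.9e-23). Xlr4b was at 0.130 and 0.118 FPKM against 4.31 and 81.1 FPKM (log2 difference -4.21, limma adjusted p = 7.21e-25), and Xlr4c at 0.172 and 0.118 FPKM against 6.86 and 60.8 FPKM (log2 difference -4.27, SE 0.39, limma adjusted p = 2.86e-25). The 3 genes reached 1 FPKM in wild-type libraries alone and passed the filter only through them, so these p-values are given as a description. HMGN1-OE and wild type did not overlap for any of them, but the second wild-type library held most of the signal in each. With a group at the level of genes without signal, the fold depends on the pseudocount of 1 FPKM. After centring, the adjusted p of Xlr4c was 0.766. At 0 h the wild-type libraries were at 39.9 and 2.19 FPKM for Xlr4a, so there the first in the table was the higher, and at 96 h at 7.92 and 0.605 FPKM. All 3 genes were called lower at 0 h and at 96 h too.

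Of the maturation genes, some granule, surface and monocyte genes were called lower with the deposited scale. Of the 22 tested secondary and tertiary granule genes, 5 were called lower and 0 higher with the deposited scale, where 0.842% of all genes were called lower, a list median of -0.68 against -0.54 over all genes, and 0 were called after centring, where the list median was -0.10 and 1 member reached an unadjusted p under 0.05. After centring 10 of the 22 lay above 0, and the libraries were apart with HMGN1-OE the higher in 5 and the lower in 5, against 26% and 9.49% of all genes. An unadjusted p under 0.05 was reached by 9 of the 22, all lower, with the deposited scale, against 494 of all 11516 genes. Mmp8, the neutrophil collagenase, was at 7.09 and 5.34 FPKM in HMGN1-OE against 58.2 and 40.7 FPKM in wild type (log2 difference -2.79, SE 0.53, limma adjusted p = 3.15e-05), and -2.21 (adjusted p = 0.697) after centring. Its groups were far apart at 36 h, while at 0 h they touched, with 55.6 and 63.3 FPKM against 55.8 and 204 FPKM. The test of whether its genotype difference changed from 0 to 36 h gave -1.96 (SE 0.75, limma adjusted p = 0.873), so a change of the difference was not shown.

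The antimicrobial peptide gene Camp was at 9.20 and 1.51 FPKM in HMGN1-OE against 28.1 and 19.5 FPKM (log2 difference -2.27, limma adjusted p = 0.00961). The calcium-binding alarmin gene S100a9 was at 158 and 19.4 FPKM against 439.7 and 276 FPKM (log2 difference -2.62, limma adjusted p = 0.00238). Its partner S100a8 was at 309 and 131 FPKM against 1347 and 533 FPKM and did not pass (log2 difference -2.07, limma adjusted p = 0.0772). The second HMGN1-OE library was the lowest of the 4 for each of these. Ngp, a neutrophil granule protein, was at 26.5 and 4.62 FPKM against 68.3 and 41.1 FPKM (limma adjusted p = 0.0328). The chitinase-like gene Chi3l3 was at 18.0 and 2.08 FPKM against 64.5 and 15.4 FPKM (limma adjusted p = 0.0293), and its groups overlapped. Camp and Ngp had not yet risen in wild type at 36 h. Wild-type Camp was at 84.6 and 31.1 FPKM at 0 h and 7470 and 2610 FPKM at 96 h, and Ngp at 132 and 53.7 FPKM and at 13800 and 5680 FPKM. In HMGN1-OE at 96 h Camp was at 3820 and 5110 FPKM and Ngp at 7540 and 7910 FPKM. Mmp8 had no such rise, at 33.4 and 60.4 FPKM in wild type at 96 h. The number of called members of the list was 5 without the first HMGN1-OE library, 1 without the second, 1 without the first wild-type library and 4 without the second. Mmp8 was called in each of these sets, and Camp in none but the first. Over the same sets the list median lay between -1.22 (without the second wild-type library) and -0.37 (without the first) with the deposited scale, and between -0.78 and 0.35 after centring, so that its sign turned without the first wild-type library.

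Among surface and monocyte genes 4 were called lower. Ly6c1 and Ly6c2 encode near-identical Ly-6C antigens carried by monocytes and granulocytes, so that reads may be split between them. Ly6c1 was at 45.9 and 33.5 FPKM in HMGN1-OE against 613 and 78.9 FPKM in wild type (log2 difference -2.46, limma adjusted p = 0.00144), and Ly6c2 at 158 and 117 FPKM against 2179 and 275 FPKM (log2 difference -2.5, limma adjusted p = 0.00292). The first wild-type library was the highest for both, and without it the adjusted p was 0.54 for each. Without the second HMGN1-OE library it was 0.28 for Ly6c1 and 0.38 for Ly6c2, and without the first 0.067 for Ly6c2. They were the 2 called genes, both lower, of 24 tested neutrophil surface and migration receptors, again against 0.842% of all genes (list median -0.64, after centring -0.06, and 0.48 after centring without the first wild-type library). Of 16 monocyte and macrophage markers 2 were called lower and 0 higher (list median -0.68, after centring -0.10), against the same 0.842%, and without the first wild-type library 0 were and the centred median was 0.35. After centring the libraries of that list were apart with HMGN1-OE the higher in 5 members and the lower in 2, against 26% and 9.49% of all genes. F13a1, a coagulation factor subunit made by monocytes, was at 77.1 and 78.9 FPKM against 59.7 and 40.7 FPKM, higher in both HMGN1-OE libraries, and did not pass (log2 difference 0.65, limma adjusted p = 0.496). Of 23 myeloid transcription factors, Irf8, which drives the monocyte lineage, was the 1 called lower, against the same share of all genes, at 3.08 and 2.24 FPKM against 12.9 and 6.47 FPKM (log2 difference -1.49, limma adjusted p = 0.0412). Lgals3, a macrophage lectin, was at 1.39 and 2.20 FPKM against 20.9 and 3.30 FPKM (log2 difference -1.81, limma adjusted p = 0.0215). Irf8 and Lgals3, the called monocyte markers, passed in none of the sets with 1 library left out other than the set without the second wild-type library, and had an adjusted p of 0.54 without the first. Prg2, the eosinophil major basic protein gene, was the 1 called lower of 18 eosinophil, basophil and mast cell genes, where 0.842% of all genes were, at 5.30 and 1.99 FPKM against 49.2 and 5.80 FPKM (log2 difference -2.09, limma adjusted p = 0.0108), and at an adjusted p of 0.54 without the first wild-type library and 0.72 without the second HMGN1-OE library. Without the second wild-type library 3 of the list were called lower, and the list median of -0.35 was 0.21 without the first and -1.17 without the second wild-type library. The mast cell protease gene Cpa3 had 564 and 647.7 FPKM against 2013 and 553.9 FPKM (limma adjusted p = 0.496), with overlap, and the basophil protease gene Prss34 had 154 and 262 FPKM against 69.5 and 67.4 FPKM (log2 difference 1.54, limma adjusted p = 0.259). The summed FPKM of the eosinophil, basophil and mast cell list was 1310 and 1350 in HMGN1-OE against 3130 and 973, so that the sum was highest in the first and lowest in the second wild-type library. That of the 8 tested erythroid and megakaryocyte genes was 342 and 372 against 204 and 1360, with the second wild-type library the highest. The part of these differences in the myeloid genes was not tested.

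Primary granule genes, which mark the earlier promyelocyte stage, had no call among 11 tested (list median -0.49, after centring 0.09, by limma, with 0 at an unadjusted p under 0.05). Without the second wild-type library the median was -0.77, and -0.33 after centring. Elane, the neutrophil elastase gene, was at 1772 and 1260.3 FPKM in HMGN1-OE against 2864 and 1109 FPKM, which overlapped. The lymphoid-type gene Igll1, a surrogate light chain also found in early progenitors, was at 261 and 190.1 FPKM against 63.8 and 123 FPKM and did not pass (log2 difference 1.32, limma adjusted p = 0.471).

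The HoxA and HoxB genes lay above the shift of the whole library. These homeobox genes are active in immature progenitors, and the study singled them out on these samples, so their direction is not independent evidence. The list holds Hoxb8, at 178 and 96.2 FPKM in HMGN1-OE against 123 and 116 FPKM in wild type. All these cells carry the ER-HoxB8 fusion, and how its reads were counted is not given in the sources used here. Of 11 tested, 2 were called higher, against 0.417% of all genes, and the list median was 0.62 with the deposited scale. After centring the list median was 1.2, 11 lay above 0, against 63.1% of all genes, and 0 were called by limma, with 6 at an unadjusted p under 0.05. Centring lifts genes of low level. With libraries multiplied to the same median FPKM the list median was 0.71, with 11 above 0, against 53.4% of all genes, and 0 called. With the deposited scale the list median was 0.17 without the second HMGN1-OE and 0.32 without the first wild-type library, and 1.06 and 1.04 without the other library of each genotype. Hoxa9 was at 6.17 and 24.6 FPKM in HMGN1-OE against 0.164 and 7.06 FPKM in wild type (log2 difference 2.15, SE 0.41, limma adjusted p = 2.6e-05). Hoxa7 was at 2.19 and 8.51 FPKM against 0.130 and 3.28 FPKM (log2 difference 1.33, SE 0.36, limma adjusted p = 0.0218). In both genes the first HMGN1-OE library lay below the second wild-type library, so the groups overlapped with the deposited scale. For each of the 2 the adjusted p was 0.72 without the second HMGN1-OE and 0.54 without the first wild-type library.

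Genes of lipid synthesis lay above the shift of the whole library, and lysosomal genes and cytokine receptors below it, but limma called none of them. All 24 tested genes of cholesterol and fatty acid synthesis were above 0 after centring, against 63.1% of all genes, with a list median of 0.23 and 3 genes at an unadjusted p under 0.05, and both HMGN1-OE libraries were the higher in 17 of them, against 26% of all genes. With the deposited scale the same list had a median of -0.36 and 0 genes called, with 0 at an unadjusted p under 0.05. Scd1, a fatty acid desaturase gene, was at 32.6 and 54.5 FPKM in HMGN1-OE against 28.8 and 33.5 FPKM, and overlapped with the deposited scale but not after centring. Of 33 DNA replication genes 31 were above 0 after centring (list median 0.11), and with the deposited scale both HMGN1-OE libraries were the lower in all 33 (list median -0.47), against 84.4% of all genes, as for Pcna, the sliding clamp of replication, at 575.8 and 588.2 FPKM against 786.9 and 803.5 FPKM. The direction of these lists flips with the scale. Of 29 mitosis genes 28 were above 0 after centring (list median 0.12, with the deposited scale -0.47). Neither of these cell cycle lists had a gene at an unadjusted p under 0.05 on either scale, by limma. The centred median of the cholesterol and fatty acid list was 0.08 without the second and 0.47 without the first wild-type library.

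Of 26 lysosomal hydrolases and membrane proteins, 22 were below 0 after centring, against 36.9% of all genes (list median -0.16, with the deposited scale -0.74). After centring 1 lower and 1 higher member had an unadjusted p under 0.05, and with the deposited scale 1, which was lower. Ctsd, the aspartic protease of the lysosome, was at 502 and 583 FPKM in HMGN1-OE against 1034 and 986.5 FPKM (log2 difference -0.90, limma adjusted p = 0.496), and the groups were apart with the deposited scale and overlapped after centring. Of 22 cytokine receptors 17 were below 0 after centring (list median -0.14), with 0 at an unadjusted p under 0.05 after centring and 3, all lower, with the deposited scale. Csf2rb, the common beta chain, was at 157 and 171 FPKM against 349 and 263 FPKM. The medians of both lists after centring changed sign without the first wild-type library, to 0.05 for the lysosomal genes and 0.13 for the cytokine receptors. Of 24 interferon-stimulated genes, Oas1a, a sensor of double-stranded RNA, was the 1 called higher, where 0.417% of all genes were, at 6.18 and 5.15 FPKM against 1.13 and 0.485 FPKM (log2 difference 1.90, SE 0.36, limma adjusted p = 3.07e-05), and the gene was called higher at 0 h and 96 h too. Of 83 cytosolic ribosomal protein genes, Rpl26 alone was called, where 1.26% of all genes were, at 22.6 and 8.66 FPKM against 28.0 and 142 FPKM, where the second wild-type library was far above the others. Its adjusted p was 0.83 without that library and 0.72 without the second HMGN1-OE library.

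**Figure D3:**
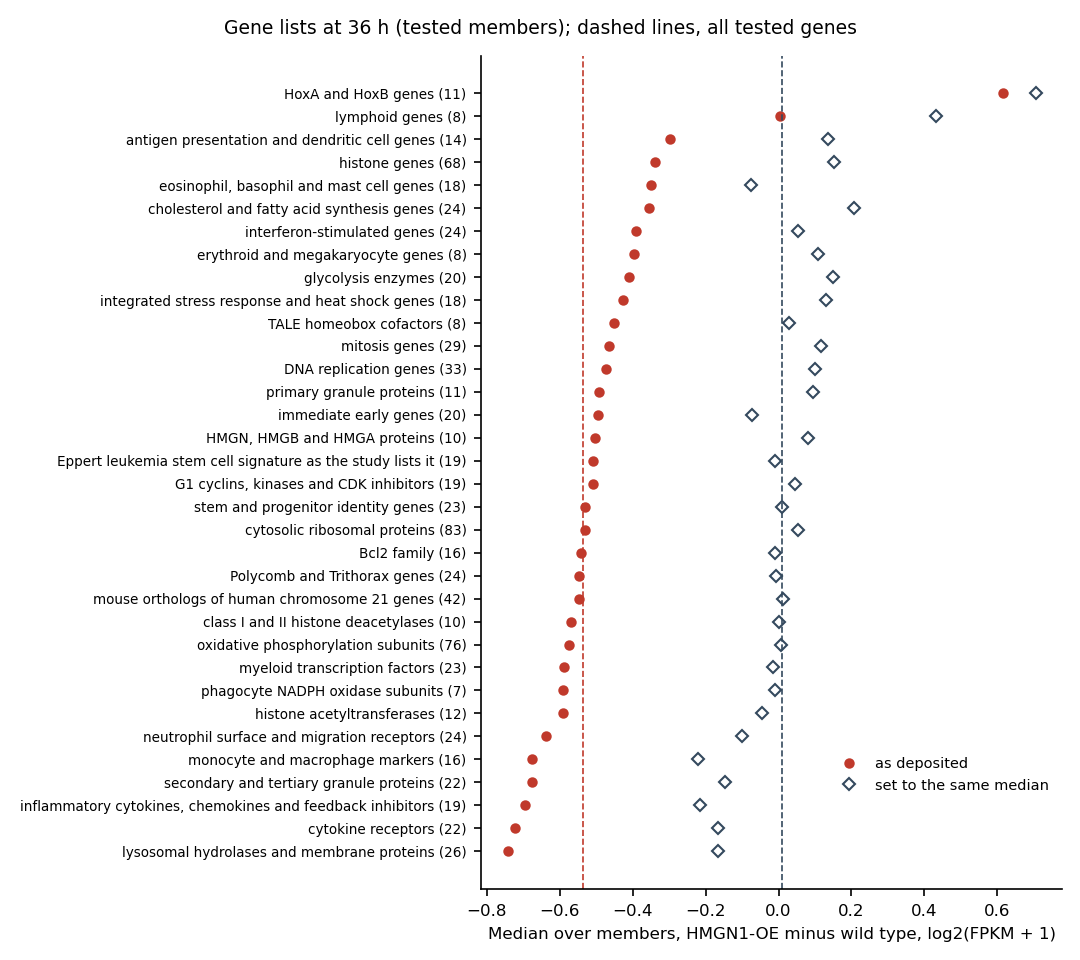
Median log2 difference on log2(FPKM + 1), HMGN1-OE minus wild type at 36 h, of 34 gene lists (circles with the deposited scale, diamonds with libraries multiplied to the same median FPKM), with dashed lines at the medians of all tested genes, -0.54 and 0.0102. Most lists sit close to the dashed line of their scale, and the HoxA and HoxB list lies farthest to the right.

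Loci of small RNAs made up a large part of the called genes. The 85 tested loci under 200 exon bases were called in 33 cases (38.8%), against 103 of 11311 longer genes (0.911%). The examples named next have mature sequences in RefSeq (GRCm38.p6), printed here with bases 2 to 8, the seed, in capitals, to show that 2 of them overlap on opposite strands:
mmu-miR-18a-5p: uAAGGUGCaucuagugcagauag
mmu-miR-19b-3p: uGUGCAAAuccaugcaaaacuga
mmu-miR-3074-5p: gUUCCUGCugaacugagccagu
mmu-miR-24-3p: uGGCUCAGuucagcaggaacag
They lie at chr14:115043867-115043889 and chr14:115044358-115044380 on the plus strand, chr13:63301249-63301270 on the minus strand and chr13:63301251-63301272 on the plus strand. The miR-3074-5p and miR-24-3p sequences are complementary over 20 bases, and no seed is shared among the 4.

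Mir18 was at 80.6 and 84.7 FPKM in HMGN1-OE against 0.108 and 0.113 FPKM in wild type (log2 difference 6.23, limma adjusted p = 3.93e-56, and 0.462 after centring), and its groups did not overlap. Its host transcript Mir17hg was at 50.4 and 43.3 FPKM against 67.0 and 94.4 FPKM, the other way. Mir19b-1, in the same host, was at 204 and 0.0972 FPKM against 517 and 555 FPKM (log2 difference -5.16), with the HMGN1-OE libraries far apart, both below wild type. Without the second HMGN1-OE library the adjusted p of Mir19b-1 was 0.72. Mir3074-1 was at 0.0947 and 0.0904 FPKM against 674 and 365 FPKM (log2 difference -8.83, SE 0.37, limma adjusted p = 2.61e-118), and -8.25 (adjusted p = 0.000314) after centring. At 0 h and 96 h it was at the level of genes without signal in all libraries, so that the wild-type libraries at 36 h held its only signal in the series. It passed the filter only through these 2 libraries, so its calls, also that after centring, are no independent support for the difference, and Mir18 likewise reached 1 FPKM in HMGN1-OE libraries alone. Mir24-1, on the other strand, was near 0.1 FPKM in all libraries. The snoRNA locus Snord83b was at 1395 and 1513 FPKM in HMGN1-OE against 0.113 and 0.12 FPKM in wild type (log2 difference 10.35), while at 0 h the values were 5536 and 0.0930 FPKM against 1104 and 0.118 FPKM, so that libraries of 1 genotype differed there by as much as the genotypes did at 36 h.

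Of the short loci 76 reached 10 FPKM in a library at 36 h, and in 40 of these 1 library of a group was below 0.5 FPKM while the other was not. Of the 33 called short loci, 26 were of that kind, and in the other 7 no group was split in that way. The mature miRNAs are shorter than the fragments of a polyA library, so their level cannot be read from these values. Snord35b, a snoRNA locus, was at 228 and 0.107 FPKM in HMGN1-OE against 599.6 and 625 FPKM in wild type, with its HMGN1-OE libraries far apart, and its adjusted p was 0.72 without the second of them.

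The spread within the wild-type group was large in many genes. After centring, the 2 wild-type libraries at 36 h differed by more than 2-fold in 803 genes, with an SD of 0.701 over genes, and the 2 HMGN1-OE libraries in 195 genes, with an SD of 0.436. The group means differed by more than 2-fold in 259 genes, of which 197 had libraries apart. The wild-type libraries lay farther apart than the genotype means in 7647 genes (66.4%). Single libraries vary more than means of 2, so such a share can arise with no genotype difference and does not measure it. Alox5, the 5-lipoxygenase gene, was called lower (log2 difference -2.20, limma adjusted p = 5.3e-05) at 4.25 and 1.23 FPKM in HMGN1-OE against 123 and 0.990 FPKM, where the groups overlapped and the difference rested on the first wild-type library. Cdkn2c, an inhibitor of the cell cycle, was at 87.9 and 50.5 FPKM against 4.04 and 159 FPKM, Cdkn2a at 2.93 and 14.8 FPKM against 82.0 and 2.84 FPKM, and Flt3, a progenitor receptor, at 7.53 and 9.31 FPKM against 4.10 and 67.0 FPKM. These genes, and Alox5, were chosen after their values were seen.

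The differences between libraries of a genotype at 0 h and 36 h ran against their place in the table. Over 11311 genes of at least 200 exon bases, the difference of the second minus the first wild-type library at 0 h had a correlation of -0.541 with the same difference at 36 h, and of the 268 genes over 2-fold at both times 255 had opposite signs. In HMGN1-OE the correlation was -0.547, and 77 of 81 such genes had opposite signs. From 36 h to 96 h the correlation was -0.0966 in wild type and 0.307 in HMGN1-OE. As an example, Cdkn2c in wild type was at 86.4 and 15 FPKM at 0 h, first and second, and at 4.04 and 159 FPKM at 36 h. These correlations are across genes, which are not independent replicates, and come with no p. Which library at 0 h shares a culture with which at 36 h is not given in the sources used here.

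**Figure D4:**
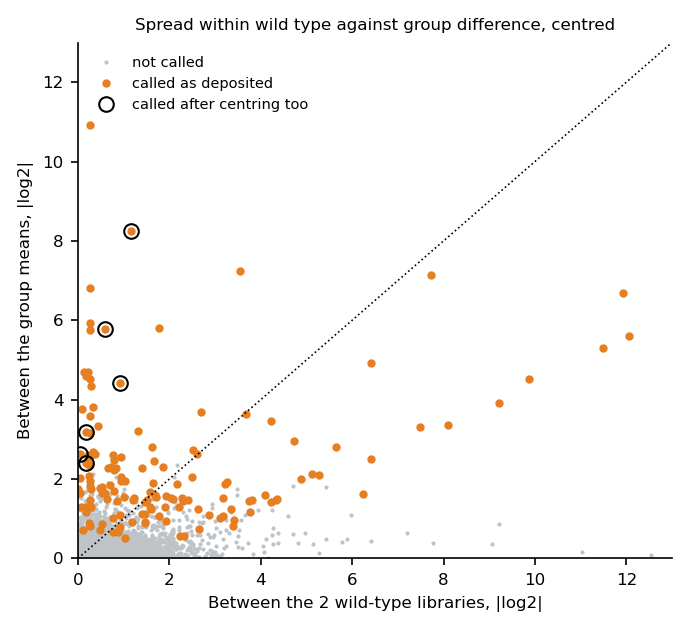
Absolute log2 difference between the 2 wild-type libraries (second against first) and absolute log2 difference between HMGN1-OE and wild-type means at 36 h after centring, 1 point per gene, with a diagonal of equality, genes called with the deposited scale marked and the 6 called after centring circled. Of the 145 called genes, 65 have a wild-type difference larger than the genotype difference.

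Most called genes of at least 200 exon bases showed the same direction at 0 h. Of the 29 called higher whose libraries stayed apart under both scales, 28 had the same sign at 0 h and 22 were called there, and at 96 h 28 had the same sign (19 after centring) and 4 were called. Of all 468 genes that were higher at 36 h, 341 had the same sign at 0 h and 393 at 96 h (137 after centring). Of the 45 lower, 43 had the same sign at 0 h and 18 were called, and at 96 h 35 had the same sign (41 after centring) and 7 were called. Of all 11048 genes that were lower at 36 h, 8814 had the same sign at 0 h and 1224 at 96 h (6088 after centring). The 29 include genes that reached 1 FPKM in HMGN1-OE libraries alone, among them Hormad2, Tdrkh, Zfp783 and Gstm7. The 45 include genes that did so in wild-type libraries alone, among them Xlr4a, Xlr4b and Xlr4c. The filter used the libraries of all times, so it favoured the same sign at 0 h and 96 h in such genes. Their agreement is therefore no independent support, and how many of the 29 and 45 they were was not counted. Over all genes, limma called 157 at 0 h (1.36%, of which 0.799% higher and 0.564% lower) and 77 at 96 h (0.669%, of which 0.321% higher and 0.347% lower). The genes called at neither other time were 7 of the 29 higher and 25 of the 45 lower. To see whether the genotype difference itself differed between times, the interaction was tested. From 0 to 36 h limma called 58 genes (0.504%, with 1.91% at an unadjusted p under 0.05), and from 36 to 96 h 63 genes (0.547%, with 4.52%), while after centring each interval had 2 (0.0174%). Among genes of at least 200 exon bases, 12 were called from 0 to 36 h and 14 from 36 to 96 h. The first wild-type library weighed on both: without it 162 genes were called from 0 to 36 h and 112 from 36 to 96 h, and without the second wild-type library 102 from 36 to 96 h.

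Several of the falls differed in size between 36 h and 96 h. Scin, Gpx8 and Pisd-ps1 had a genotype difference that was higher at 96 h than at 36 h by 2.51, 3.78 and 3.31 on the log2 scale. Wild-type Gpx8 was at 51.3 and 55.1 FPKM at 36 h and at 0.195 and 0.0436 FPKM at 96 h. Ly6c1 and Ly6c2 differed by 3.50 and 3.56 in the same sense. After centring none of these passed. For S100a9 the interaction of 11.1 rested on the first wild-type library at 96 h, which was listed at 0.0511 FPKM against 51875 and 73461 FPKM in HMGN1-OE and 26546 FPKM in the other wild-type library.

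**Figure D5:**
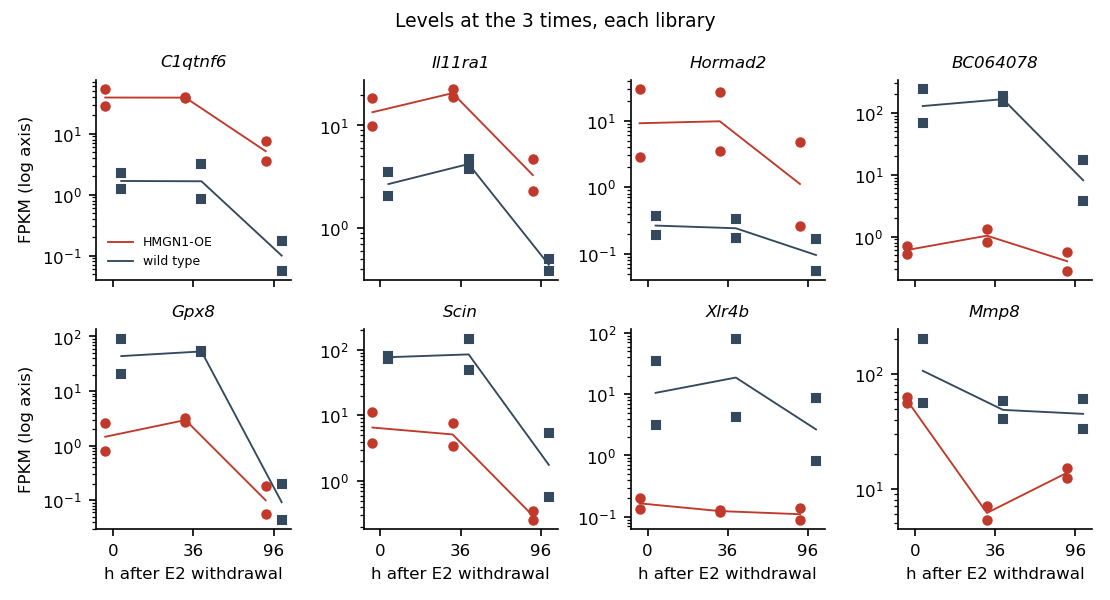
FPKM on a log axis at 0, 36 and 96 h after E2 withdrawal (the time axis is not to scale) in each library (points) with lines through the geometric means of HMGN1-OE and wild type, for 8 genes. C1qtnf6 and Il11ra1 are above wild type in HMGN1-OE at all 3 times, BC064078 and Xlr4b are below, and Mmp8 has overlapping libraries at 0 h and separate ones at 36 h.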

How the data were processed

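RNA of counted myeloid progenitors with added ERCC spike-in RNAs was made into unstranded polyA libraries, 2 for each of 2 genotypes at 0, 36 and 96 h. The deposited FPKM values were made by the authors, per gene and library, with loess normalization on the spike-ins. The study's methods name Bowtie for alignment, while the submitters' processing notes list HISAT, Cufflinks 2.0.0 and build mm9, and these accounts were not reconciled. All 12 columns were used, mapped to groups but not to replicate numbers. Depth is unknown, and 2 libraries a group limit the precision.

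Genes that reached 1 FPKM in 2 or more of the 12 libraries were tested on log2(FPKM + 1) with limma 3.58.1 (R 4.3.3), with trend and a mean for each of 6 groups, so that all libraries share 1 estimate of the spread. p-values are two-sided, Benjamini-Hochberg adjusted over the 11516 genes, and called under 0.05. Fold changes of low genes are understated by the pseudocount of 1. The smallest p that an exact permutation test allows for 2 against 2 libraries is 0.333. Centring set each library's median log2 value to the mean of the library medians. Gene length and type came from GENCODE vM21, matched by symbol for 22909 genes, and sequences from RefSeq. The fit was tested on simulated data. Alternatives changed the scaling, pseudocount, filter, moderation or libraries.

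Genes named were chosen from Hmgn1, the 15 largest rises and 15 largest falls among calls whose libraries stayed apart under both scales, every gene called after centring, called list members, the 3 most abundant and 2 farthest members of each list, and the 10 leading genes of each interaction. Not every gene so chosen is printed, and some lists are not described. Others, such as Elane, markers of other cell types, and parent, host or neighbouring genes, were chosen after their values were seen. The comparison, gene lists and genes were chosen with earlier results of these data known.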

Additional observations from a re-analysis of the deposited data

Results flagged for a closer look

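The genotype difference itself differed between times, by limma's test of the interaction at an adjusted p under 0.05 with the deposited scale, in the genes below, each given as a log2 value. Groups of 2 libraries are too small for a test of single outlying libraries.

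From 0 to 36 h the difference of HMGN1-OE minus wild type moved up by 9.20 in Snord83b, 2.88 in Gm9846, 3.00 in Mir18, 4.05 in Mir1892, 8.44 in Mir678, 8.24 in Mir26b and 10 in Mir677. Over the same interval it changed by -1.88 in Gstm7, -8.83 in Mir3074-1, -6.50 in Snord7, -2.96 in Mir692-1, -4.82 in Snord35b, -5.16 in Mir19b-1, -3.50 in Prg2, -11.2 in Mir5133, -11.0 in Snord1b, -6.58 in Mir378b and -7.40 in Mir27a. After centring, Mir3074-1 and Mir378b were the 2 called. Most of these are loci of small RNAs, in which libraries of 1 group often stand at opposite ends, 1 of them near 0.1 FPKM.

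From 36 to 96 h it moved up by 8.83 in Mir3074-1, 11.5 in Mir1892, 6.41 in Snord7, 5.14 in Mir692-1, 12.5 in Snord35b, 8.59 in Mir19b-1, 5.89 in Mir5133, 6.19 in Snord1b, 7.75 in Mir27a, 7.29 in Mir29c and 8.51 in Mir25. It changed by -10.3 in Snord83b, -6.23 in Mir18, -6.09 in Snord96a, -5.48 in Mir1940, -5.28 in Mir686, -3.75 in Mir678, -3.68 in Mir677 and -6.33 in Mir425.

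Among longer genes it moved up from 36 to 96 h by 3.62 in BC064078, 4.24 in Ndufs5, 2.38 in Xlr4c, 2.30 in Xlr4b, 2.26 in Xlr4a, 2.51 in Scin, 3.78 in Gpx8, 3.31 in Pisd-ps1, 3.50 in Ly6c1, 3.56 in Ly6c2, 3.74 in Rpl26 and 11.1 in S100a9, and it changed by -2.16 in 4933440M02Rik.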

How the results depend on the processing

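In place of the 145 genes called at 36 h, other settings called 6 after centring, 7 after quantile normalization, 8 with libraries multiplied to the same median (chosen after seeing the data), 15 without a filter, 71 with a mean of at least 5 FPKM, 11 with only the 4 libraries at 36 h, 28 without the trend, 59 with the robust option and 2 with each gene's own variance, and 85 to 231 with 1 library left out. Of the 145, the settings kept 6 after centring, 6 after quantile normalization, 7 at the same median, 2 without a filter, 10 with the 4 libraries, 1 with own variance and 63 to 93 with 1 library left out, where 4 or 5 changed sign. The 6 called after centring became 321 without a filter, 1 with each gene's own variance, and 2 to 12 with 1 library left out. With only the 4 libraries at 36 h 5 were called, of which BC064078 was the 1 shared with the 6. BC064078 and Mir3074-1 were called in each of the sets with 1 library left out, C1qtnf6 in all but that without the second HMGN1-OE library, and Il11ra1, Gm13305 and Gpx8 in 0 of the 4. Libraries were apart in 9853 genes, and in 4087 after centring, 3760 after quantile normalization, 19081 without a filter and 3700 at the same median. The median difference of -0.54 became 0.0444, 0.00636, -0.088 and 0.0102 under those settings in that order.

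The 58 interaction calls from 0 to 36 h became 2 after centring, 2 after quantile normalization, 4 without a filter, 33 with the mean filter, 2 without the trend, 8 with the robust option, 3 with each gene's own variance, 2 at the same median and 12 for genes of at least 200 bases. The 63 from 36 to 96 h became 2, 3, 7 (no filter), 7 (no trend), 13 (robust), 2 (own variance), 3 (same median) and 14 (at least 200 bases). With 1 library left out there were 40 to 162 calls from 0 to 36 h. With 1 library left out there were 51 to 112 calls from 36 to 96 h.

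Hmgn1, at -0.02, changed sign to 0.563 after centring, 0.527 after quantile normalization, 0.562 at the same median, and ran from -0.26 to 0.226 with 1 library left out (0.226 without the first HMGN1-OE and 0.167 without the second wild-type library). From 36 to 96 h Mir678 ran from -7.52 to 0.018 (without the first HMGN1-OE library), and Mir677 from -9.34 to 1.98 (without the first wild-type library), with 1.28 without the first HMGN1-OE library. The cause was not tested. No paired analysis was possible because the table's column numbers are not the replicate numbers of the labels.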
